A study of Mus musculus with 11 samples.

Results

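The data described here are 6 of the 11 RNA sequencing libraries of a study of mouse hippocampal neural stem cells (NSCs), namely the 3 titled Differentiation_4HBP and the 3 titled Proliferation_4HBP, and every gene they quantified. Both groups held primary NSCs from the embryonic mouse hippocampus that received 1 µM 4HBP for 7 days, so the compound was shared by the groups and the medium was what differed. 4HBP is a benzophenone; the sample labels name it 4-hydroxybenzoic acid and the paper 4-hydroxybenzophenone. The proliferation medium was DMEM/F12 with 1% B27 and with EGF and bFGF at 20 ng/ml each, and the differentiation medium lists neither growth factor and holds 2% B27. The other 5 libraries received the vehicle, ethanol (EtOH), in the same media (3 in proliferation and 2 in differentiation medium). They are used here to set the change of medium under 4HBP beside the change of medium under vehicle. They also entered the filter on low counts, the scaling and the estimate of spread behind the tests of the 4HBP groups. The labels do not say whether replicates came from separate cultures or animals, so the p-values measure the spread between these libraries, which may be technical.

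EGF and bFGF keep neural stem cells dividing as undifferentiated progenitors, through receptor tyrosine kinases and the ERK pathway. When both factors are withdrawn, such cells leave the cell cycle and give rise to neurons, astrocytes and oligodendrocytes in mixtures that depend on the culture. Early markers of the stem cell state, such as the intermediate filament nestin (Nes), are then lost and the genes of the mature cell types come up over the following days.

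The 6 libraries held between 20822921 and 23187906 expected counts, and the floor of detection, set at 3 counts, was equal to 0.129 to 0.144 CPM (counts scaled to a common library size). The 3 Differentiation_4HBP libraries were close to each other, with a biological coefficient of variation (the relative spread between replicates beyond counting noise) of 0.0365, against 0.135 for Proliferation_4HBP. Replicate 3 of Proliferation_4HBP stood apart: its counts differed from those of replicates 1 and 2 by a mean chi-square per gene of 23.8 and 21.5, against 5.34 between replicates 1 and 2 and 2.53 to 2.85 within Differentiation_4HBP. Some fold changes past the test between the 4HBP groups and some list medians lost their call or moved by over 1.5 times without this library. For these, the value or adjusted p without it is given beside the printed one. Fold changes that did not pass the test are given a second value only in part. Transcripts of the mitochondrial genome took 8.49% to 9.60% of the counts in proliferation and 5.96% to 6.24% in differentiation medium. Below, values per library are normalized CPM (CPM on TMM-adjusted library sizes), in the order of replicates 1, 2 and 3. A log2 fold change is differentiation over proliferation medium from edgeR's quasi-likelihood test, with its Benjamini-Hochberg adjusted p. The standard error (SE) beside it is approximate, taken from the test statistic, and can be too small where 1 group lies near the floor.

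The change of medium reached most of the transcriptome under 4HBP. Of 15920 genes tested, 5309 were higher in differentiation medium (33.3%) and 5383 lower (33.8%) at an adjusted p under 0.05, and the median log2 fold change over all genes tested was 0.01. The counts of every gene list below are to be read against these shares. Over 2-fold, 2493 genes were higher (15.7%) and 1458 lower (9.16%), and over 4-fold 1066 were higher and 462 lower, so that the large changes were more often increases. For 71.5% of the genes tested the 3 values of one medium lay entirely above the 3 of the other. Without Proliferation_4HBP replicate 3, all of the 3943 genes over 2-fold that could still be tested kept their direction and 3814 still passed the test. Long intergenic noncoding RNAs took part mostly on the rising side. Of 529 tested, 180 were over 2-fold higher (34.0%) and 40 over 2-fold lower (7.56%), against 13.6% and 9.38% of the 13643 protein-coding genes. Of the genes called higher, 325 held 3 counts or fewer in every proliferation library with 4HBP. Of those called lower, 66 held as few in every differentiation library with 4HBP. These libraries held any counts for 19029 to 19694 genes in proliferation and 20829 to 21408 in differentiation medium. How far genes near the floor made up the excess of large increases, in these RNAs or in all genes, was not tested. Protein-coding genes over 2-fold higher were also longer on the genome, with a median span of 29.7 kb and 23.9% over 100 kb, against 24.3 kb and 15.9% for those over 2-fold lower. Over all tested protein-coding genes these values were 25.6 kb and 15.7%.

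Among the 10 protein-coding genes with the largest increases, taken among those with at least 20 CPM in the higher medium and no overlap between the groups, were genes of astrocytes and oligodendrocytes. Aldh1a1 (chromosome 19, 20492715 to 20643465, GRCm38), which makes retinoic acid from retinal, read 0.245, 0.242 and 0.0937 in proliferation and 204, 213 and 199 in differentiation medium, a log2 fold change of 10.02 (SE 0.16, adjusted p = 4.3e-13). It was nearly silent in every proliferation library and among the higher expressed genes in every differentiation library. Fam107a, an actin-associated stress gene of astrocytes, rose by a log2 fold change of 8.94 (SE 0.18, adjusted p = 2.42e-12), and Mog, a glycoprotein of the outer myelin sheath, by 7.87. Pdgfrb, the PDGF receptor of pericytes and mesenchymal cells, went from 0.0469 to 0.245 CPM up to 26.5 to 29.2 CPM. Lama2, a laminin chain of basement membranes, and Adra2a, an adrenergic receptor, rose by 6.56 and 6.22, and Glycam1, Olfr287 and Gm20721 completed the group. The mitochondrial mt-Co3 was listed at 0.0937 to 0.098 CPM in proliferation and at 62.5 to 308 in differentiation medium, but 99.9% of its 40-base words are shared with Gm28437, so its counts can be divided between identical copies and its change is uncertain. Of the words of Olfr287, 35.7% are shared with another gene.

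The 10 largest decreases included Hmga2, a chromatin protein of fetal stem cells, which read 29.4, 26.7 and 16.9 in proliferation and 0.392, 0.507 and 0.427 in differentiation medium (log2 fold change -5.76, SE 0.59, adjusted p = 2.04e-06). Its groups lay far apart, and every differentiation library was near the limit of detection. Nupr1, a stress-induced nuclear protein, and Serpina3n, a secreted protease inhibitor of reactive astrocytes, fell by 6.19 and 5.14 on the log2 scale, Serpina3n from 637, 726 and 661 to 20.5, 17.4 and 19.5. Prph, which encodes the intermediate filament peripherin, was at or below 3 counts in every differentiation library and at 16.4 to 24.3 CPM in proliferation medium, at least 155.5-fold lower by the mean against 3 counts per library. The copper enzyme Moxd1 and the membrane protein Myof fell by 5.58 and 5.14, and Cdsn by 8.34. Gm49337 and Gm49369 share 97.5% and 92.9% of their 40-base words with other genes and Clca3a1 30.6%, so their decreases are uncertain.

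**Figure D1:**
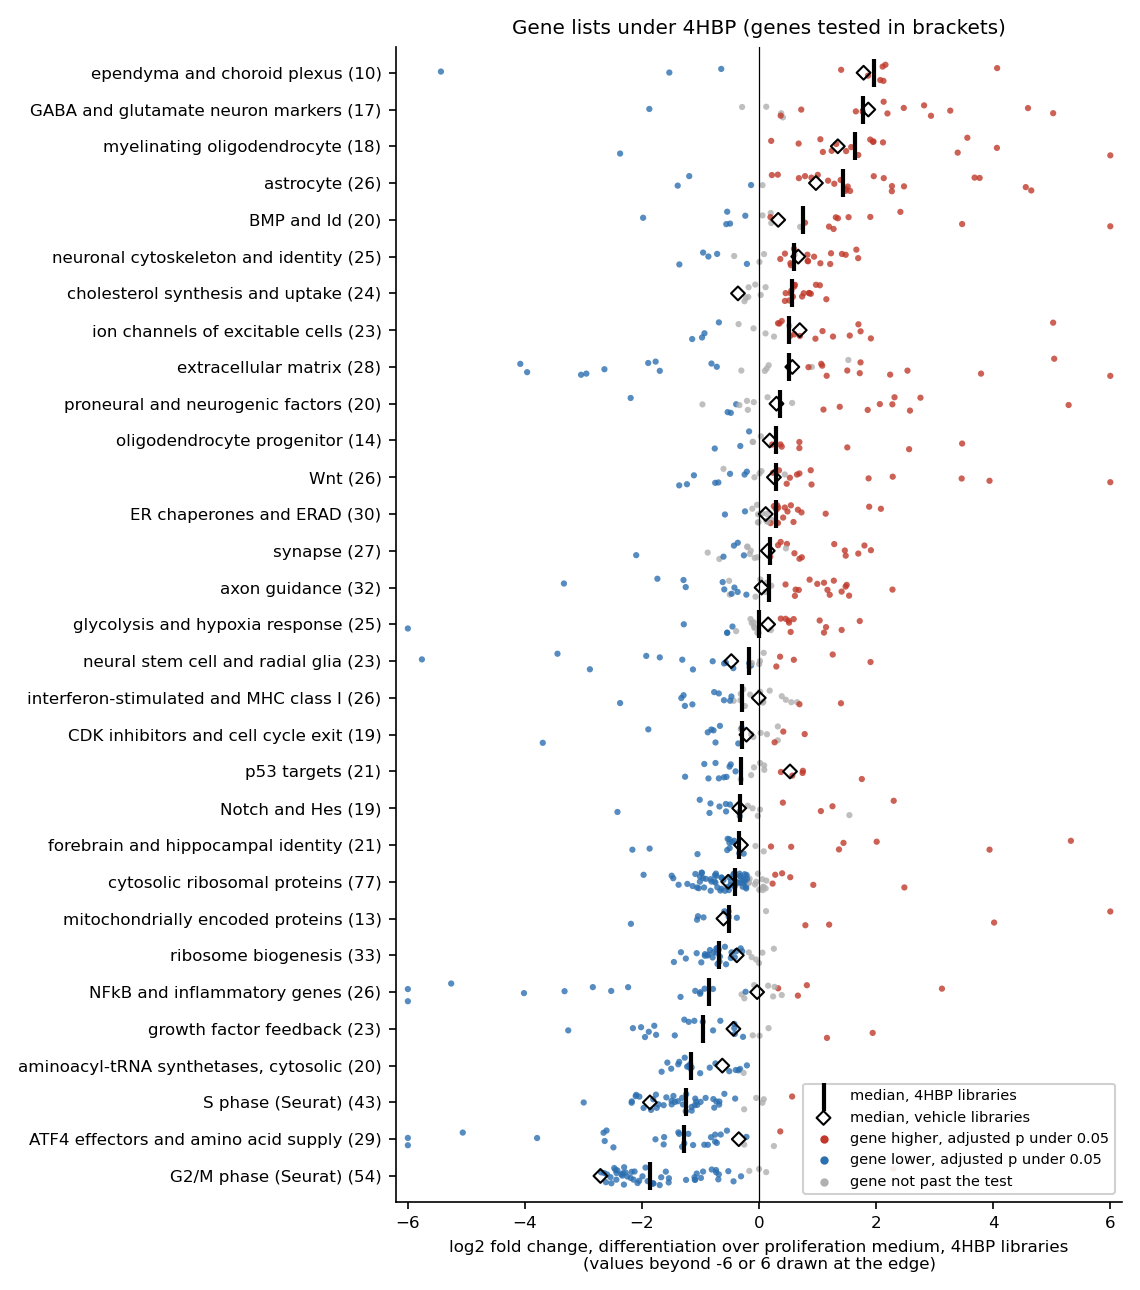
Log2 fold change between the media in the 4HBP libraries (horizontal axis) for each tested gene of 31 gene lists (rows, with the number of genes tested), with vertical bars for the median under 4HBP and open diamonds for the median under vehicle. The G2/M list has the lowest median (-1.87) and the lists of ependyma, GABA and glutamate neurons, myelin and astrocytes the highest, and the bar and the diamond lie on opposite sides of 0 for the cholesterol and p53 lists and, by little, for glycolysis.

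The transcriptional targets of EGF and FGF signalling were mostly lower in differentiation medium, which lists neither factor and also holds more B27. Which difference between the media accounts for this was not tested. Of 23 genes of growth factor feedback, 18 were lower and 2 higher, with a median of -0.96. Under vehicle 13 were lower and 5 higher, with a median of -0.44. Egr1, an immediate early gene, read 209, 233 and 176 in proliferation and 52.1, 55.8 and 52.3 in differentiation medium (log2 fold change -1.95, SE 0.13, adjusted p = 2.77e-08), and the groups did not overlap. Cyclin D1 (Ccnd1), which growth factors induce to start the cell cycle, read 421, 412 and 250 against 81.2, 79.2 and 82.9, and Ier3, Fos and the ETS factor Etv5 fell by 3.26, 2.02 and 1.44. Of the 40-base words of Etv5, 27.5% are shared with Gm4798. Spry4, a feedback inhibitor of the receptors, fell by 1.11. Dusp6, the ERK phosphatase often used as a readout of FGF signalling, did not follow: it read 30.4, 34.3 and 30.6 in proliferation and 28.1, 29.1 and 31.2 in differentiation medium, with a log2 fold change of -0.11 (SE 0.10, adjusted p = 0.377). The phosphatase Dusp4 and the sulfatase Sulf1 were the members that rose, by 1.94 and 1.16. Egfr, the receptor itself, read 177, 187 and 247 against 185, 187 and 189, a log2 fold change of -0.12 (adjusted p = 0.337) that became 0.03 without Proliferation_4HBP replicate 3.

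Genes of DNA replication and mitosis fell together. Of 43 genes that are highest in S phase, 38 were lower and 1 higher (median -1.25), and of 54 genes that are highest in G2 and M phase, 50 were lower and 1 higher (median -1.87). Mki67 (chromosome 7, 135689784 to 135716361), which encodes the proliferation antigen Ki-67, read 279, 315 and 156 in proliferation and 45.1, 46.9 and 56.5 in differentiation medium, 5.05-fold lower (log2 fold change -2.34, SE 0.22, adjusted p = 8.43e-07). Replicate 3 held the lowest proliferation value, and it still lay above every differentiation value. Top2a, the topoisomerase that untangles chromosomes, read 187, 220 and 111 against 40.2, 40.2 and 49.8, and cyclin B1 (Ccnb1), the mitotic partner of Cdk1, 31.6, 41.6 and 21.2 against 7.54, 7.87 and 8.35. Of the words of Ccnb1, 25.4% are shared with other genes, most of them with a pseudogene. The replication helicase subunit Mcm5 fell by 1.46 and the chromatin remodeller Hells by 3.00. The cell cycle RNA did not disappear, with Mki67 still at 45.1 to 56.5 CPM in differentiation medium. The summed level of the G2/M list was 2586 to 2729 CPM in differentiation and 3024 to 4322 in proliferation medium. The G2/M sum includes Tubb4b, a tubulin of axons and cilia and the member that rose (log2 fold change 2.29), at 822 to 869 CPM in differentiation medium. It also includes abundant members that did not pass the test, such as Ckap5 (mean 375 CPM in both media) and Hjurp (112 against 99.9). Less abundant members such as Cdk1 and Ccnb2 fell from means of 24.3 and 10.9 to 5.88 and 2.17. The sum thus does not show how far mitotic RNA persisted. In bulk RNA, fewer cells of a kind and less RNA of that kind per cell cannot be told apart.

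Promoters of mitotic genes commonly hold CCAAT boxes, bound by the factor NF-Y, and a cell cycle homology region (CHR), which recruits the complexes that silence them in resting cells. In RefSeq promoters (250 bases before to 50 after the start, GRCm38.p6) the letters CCAAT or, on the other strand, ATTGG stood in 75% of 52 promoters of the G2/M list and in 37.4% of all 32851, and TTTGAA or TTCAAA, the CHR letters, in 65.4% and 17.9%. Both kinds stood together in 51.9% and 6.95%. The CCAAT letters were not particular to this list. They stood in 80% of promoters of the cholesterol list, 65.7% of S phase, 56% of neuronal cytoskeleton and 48.6% of ATF4. The share was 50% for both the myelin and the tRNA synthetase lists, 33.3% for astrocytes and 29.6% for ribosomal proteins. In the 35 promoters of the S phase list the E2F-like letters TTTCCCGC or TTTGGCGC, or their other strands, stood in 31.4%, against 1.56% of all. These are shares of letters in a window, not of sites shown to be bound. The stretches below are the 150 bases just before the start of 3 G2/M genes, with those letters in capitals. These genes had the largest changes among those whose stretch held at least 2 CCAAT boxes and a CHR and touched no annotated exon. Promoters of 1 chromosome were left out before this choice.
Ckap2l, chr2:129297213-129297362, minus strand: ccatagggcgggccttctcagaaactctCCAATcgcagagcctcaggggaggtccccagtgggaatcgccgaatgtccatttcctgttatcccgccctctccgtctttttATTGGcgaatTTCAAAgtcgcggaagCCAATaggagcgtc
Top2a, chr11:99024190-99024339, minus strand: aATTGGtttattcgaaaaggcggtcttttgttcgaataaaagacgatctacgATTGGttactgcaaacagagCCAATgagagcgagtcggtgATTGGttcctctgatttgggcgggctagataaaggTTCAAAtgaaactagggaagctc
Hmgb2, chr8:57511693-57511842, plus strand: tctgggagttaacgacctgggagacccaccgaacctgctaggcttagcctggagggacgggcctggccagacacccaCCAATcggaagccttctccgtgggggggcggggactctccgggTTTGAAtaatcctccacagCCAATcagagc
In all 3 the CHR letters lay close to the start, 30 bases before it in Ckap2l and Hmgb2 and 23 in Top2a, with at least 1 CCAAT box further upstream. Ckap2l, a spindle protein, read 65.0, 77.8 and 37.2 in proliferation and 9.37, 8.41 and 9.91 in differentiation medium, and Hmgb2, a chromatin protein of dividing cells, fell by 1.82.

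Of the inhibitors that hold cells out of the cycle, few were higher in differentiation medium. Of 19 such genes, 3 rose and 9 fell (median -0.30, or -0.17 without Proliferation_4HBP replicate 3). Cdkn1c (p57), an inhibitor of cyclin-dependent kinases, read 26.4, 33.4 and 28.9 in proliferation and 2.00, 2.2 and 2.65 in differentiation medium (log2 fold change -3.69, SE 0.16, adjusted p = 6.53e-10), with no overlap. The members that rose were Btg1, Rbl2 (p130), the retinoblastoma relative of resting cells, and Gadd45g, by 0.78, 0.41 and 0.27, but Gadd45g no longer passed without Proliferation_4HBP replicate 3 (adjusted p = 0.0728). Cdkn1a (p21) read 282, 320 and 401 against 256, 264 and 287 and did not pass the test (log2 fold change -0.31, adjusted p = 0.0586). Without Proliferation_4HBP replicate 3 its log2 fold change was -0.17.

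The stem cell markers divided. Of 23 genes of neural stem cells and radial glia, 13 were lower and 5 higher (median -0.17). Nes (chromosome 3, 87971078 to 87980451) read 755, 797 and 481 in proliferation and 96.5, 86.0 and 91.9 in differentiation medium, 7.41-fold lower (log2 fold change -2.89, SE 0.19, adjusted p = 3.34e-08). The filament vimentin (Vim) and the hyaluronan receptor Cd44 fell by 1.93 and 3.44, Cd44 from 240 to 317 CPM down to 24.0 to 27.3. Sox2, the transcription factor of the stem cell state, kept most of its level: it read 314, 320 and 320 against 241, 230 and 231 (log2 fold change -0.44, SE 0.05, adjusted p = 6.67e-06), a small decrease with groups that did not overlap. Prom1 (CD133) and Sox3, both used as stem cell markers, were higher, by 1.90 and 1.26. The forebrain factors Zic1 and Emx2 fell by 2.16 and 1.05, among 12 lower and 7 higher of 21 genes of forebrain and hippocampal identity.

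Notch and BMP signalling, which hold stem cells undifferentiated and steer them towards glia, moved in part. Of 19 tested Notch pathway genes 10 were lower and 4 higher. The Notch target Hes5 read 12.7, 16.1 and 5.39 in proliferation and 1.74, 2.28 and 2.37 in differentiation medium (log2 fold change -2.42, SE 0.32, adjusted p = 2.1e-05), so that it was low in every differentiation library, while the receptor Notch2 rose by 2.30 and Notch1 fell by 0.68. Of 20 tested BMP and Id genes 11 were higher and 5 lower (median 0.74). The ligand Bmp4 read 5.24, 4.74 and 5.15 against 57.9, 55 and 54.9 (log2 fold change 3.47, SE 0.10, adjusted p = 3.64e-11), and Bmp6, at 3 counts or fewer in every proliferation library, stood at 16.8 to 19.3 CPM. The targets Id4 and Smad6 rose by 1.90 and 2.41, while Id1 read 29.3, 28.7 and 23.2 against 31.6, 30.2 and 32.0 and did not pass the test (adjusted p = 0.24), and the ligand Bmp7 fell by 1.98. In the Wnt list, 13 of 26 tested genes were higher and 8 lower, against 33.3% and 33.8% of all genes tested. Sfrp1, a secreted antagonist, was at 2.28 and the receptor Fzd10 at -1.36.

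**Figure D2:**
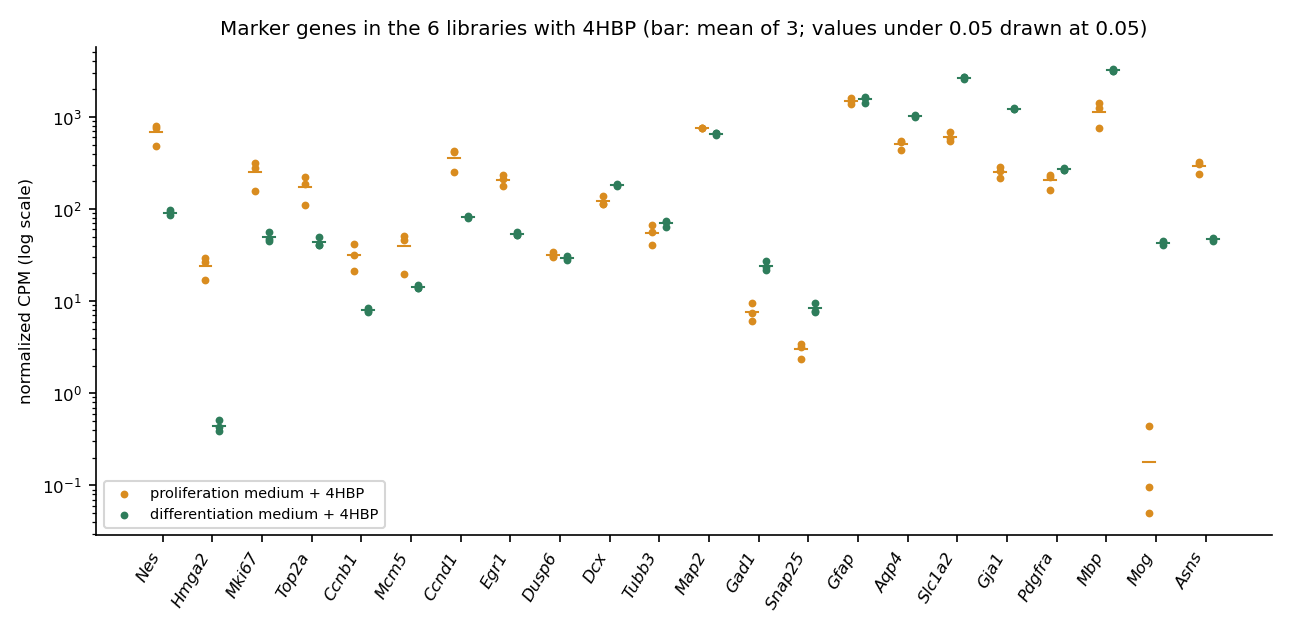
Normalized CPM (log axis) of marker genes in the 3 proliferation (orange) and 3 differentiation (green) libraries with 4HBP, with a bar at each mean. Nes, Hmga2 and the cell cycle genes are lower in all 3 differentiation libraries and Mog, Gja1 and Slc1a2 higher in all 3, while Gfap, Dusp6 and Map2 lie at similar heights in both media.

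Genes of neurons rose in part. Of 20 tested proneural and neurogenic factors 9 were higher and 4 lower. The risers included transcription factors of the ventral forebrain, where GABA neurons are born: Dlx1 read 13.6, 14.6 and 13.2 in proliferation and 72.4, 65.9 and 67.8 in differentiation medium (log2 fold change 2.31, SE 0.12, adjusted p = 4.98e-09), and Sp9 and Dlx5 rose by 2.58 and 2.28. Lhx6, of the same lineage, was under 3 counts in every proliferation library and at 1.14 to 1.92 CPM in differentiation medium. Neurog2, a proneural factor of glutamate neurons, rose by 2.76 at no more than 0.634 CPM, and Neurod6, of the same lineage, fell by 2.19 at similarly low levels.

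Of 25 genes of the neuronal cytoskeleton and neuronal identity, 16 were higher and 5 lower (median 0.60), and their summed level rose from 3396 to 3749 CPM to 4374 to 4536. Dcx, the microtubule protein of young neurons, read 113, 112 and 138 in proliferation and 179, 187 and 184 in differentiation medium (log2 fold change 0.60, SE 0.08, adjusted p = 3.7e-05), without overlap. Tubb3, the tubulin used to stain neurons, read 55.8, 67.3 and 40.3 against 74.4, 63.9 and 71.6, so the groups overlapped, and its log2 fold change of 0.36 (adjusted p = 0.0392) became 0.18 (adjusted p = 0.115) without Proliferation_4HBP replicate 3. Map2, the dendritic microtubule protein, was slightly lower, from 766, 750 and 756 to 633, 667 and 667 (log2 fold change -0.21, SE 0.06, adjusted p = 0.00511). The growth cone protein Gap43 fell by 1.36, and Stmn4 rose by 1.69. Rbfox3 (NeuN), the marker of mature neurons, was low in both media and read 1.52, 1.55 and 1.69 against 2.44, 1.90 and 2.61, a rise of 0.54 on the log2 scale (adjusted p = 0.0325) with no overlap.

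Receptors and transmitter enzymes were also higher in part. Of 17 tested markers of GABA and glutamate neurons, out of 21 listed, 12 were higher and 1 lower (median 1.77). Gad1 and Gad2, the enzymes that make GABA, read 6.07, 7.40 and 9.65 and 2.55, 3.00 and 2.11 in proliferation medium, and 23.8, 27.5 and 21.6 and 11, 12 and 12.1 in differentiation medium (log2 fold changes 1.65 and 2.19, adjusted p = 1.14e-06 and 1.3e-07). Slc32a1, which loads GABA into vesicles, rose by 4.59 to 4.40 to 5.31 CPM. Slc17a6 and Slc17a7, which load glutamate, had at most 2 and 8 counts in any of the 6 libraries and were not tested. The glutamate receptor Gria1 read 3.62, 3.67 and 5.76 against 141, 145 and 141 (log2 fold change 5.02, SE 0.14, adjusted p = 2.85e-11), and Grm5 fell by 1.88. In the synapse list 13 of 27 genes were higher and 5 lower (median 0.19), against 33.3% and 33.8% of all genes tested. Snap25, of the vesicle fusion machinery, read 2.35, 3.14 and 3.47 against 9.63, 7.65 and 7.78, Syp, the vesicle protein synaptophysin, had a log2 fold change of -0.07 (adjusted p = 0.621), and the kinase subunit Camk2b fell by 2.10. Of 23 ion channels of excitable cells 14 were higher and 4 lower, with the potassium channel Kcna1 at 5.02 and the sodium channel Scn2a at -1.14. The axon guidance list was mixed, with 15 of 32 genes higher and 10 lower, against the same shares of all genes. The receptor subunit Plxna4 rose by 2.28 and the repellent Sema3a fell by 3.33.

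Astrocyte genes rose over a broad front. Of 26 genes 22 were higher and 3 lower (median 1.44), and the summed level was 17240 to 18440 CPM in proliferation and 36610 to 36720 in differentiation medium. Slc1a2, the main glutamate transporter of astrocytes, read 594, 552 and 683 against 2565, 2711 and 2727 (log2 fold change 2.13, SE 0.09, adjusted p = 6.53e-10). Gja1, the gap junction protein connexin 43, read 260, 217 and 288 against 1245, 1225 and 1220 (log2 fold change 2.27, SE 0.12, adjusted p = 3.97e-09). Both were higher in every differentiation library than in any proliferation library. The water channel Aqp4 read 539, 434 and 552 against 1022, 1042 and 995, the glutamine synthetase Glul rose by 2.48, and Gjb6 (connexin 30), Ntsr2 and angiotensinogen (Agt) by 4.65, 4.56 and 3.68. Gfap (chromosome 11, 102887336 to 102900912), the filament most used to stain astrocytes, did not move with them: it read 1376, 1468 and 1612 in proliferation and 1647, 1585 and 1408 in differentiation medium, with overlapping groups and a log2 fold change of 0.06 (SE 0.09, adjusted p = 0.60). Without Proliferation_4HBP replicate 3 the log2 fold change of Gfap was 0.12 and did not pass either (adjusted p = 0.273). The members that fell were the folate enzyme Aldh1l1, the glial factor Sox9 and, by little, the glutamate transporter Slc1a3, by 1.39, 1.19 and 0.14.

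The oligodendrocyte lineage showed its largest increases at the myelin stage. Of 18 genes of myelinating oligodendrocytes 17 were higher and 1 lower (median 1.64), and their summed level rose from 3765 to 5463 CPM to 12900 to 13170. Mbp, the myelin basic protein, read 1414, 1251 and 754 against 3166, 3126 and 3288 (log2 fold change 1.49, SE 0.18, adjusted p = 6.99e-06). Mog read 0.441, 0.0967 and 0 against 40.2, 43.4 and 44.5, so a gene that appears late in myelination was all but missing from the proliferation libraries. The myelin genes Mobp and Tspan2 rose by 4.06 and 3.56, and Opalin, a myelin membrane protein, was the member that fell, from 26.8, 24.8 and 10.2 to 4.75, 3.26 and 3.89. Genes of oligodendrocyte progenitors changed less: 8 of 14 were higher and 3 lower (median 0.29, or 0.17 without Proliferation_4HBP replicate 3). Pdgfra, the growth factor receptor of these progenitors, read 234, 224 and 159 against 266, 264 and 278 (log2 fold change 0.39, adjusted p = 0.0106), and Olig2 and Sox10, which specify the lineage, rose by 0.22 and 0.37. The values of Pdgfra and Olig2 were 0.23 and 0.12 without Proliferation_4HBP replicate 3 and still passed the test. Gpr17, a receptor of cells about to myelinate, rose by 2.56.

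Levels can be compared between genes only per transcript length, as TPM, which scales each library to a fixed total of transcripts. On that scale the differentiation libraries with 4HBP held 3215 TPM or more of Mbp, 971 or more of Gfap and 714 or more of Gja1, against at least 327 of Map2, 65.0 of Tubb3, 40.5 of Dcx and 18.3 of Gad1. These glial markers stood above the neuronal ones named here in these cultures, but other glial markers did not all do so. Aqp4, at 344 to 365 TPM, was little above Map2, at 327 to 337. S100b and Mog, at 71.54 to 74.41 and 45.11 to 52.15 TPM, were far below Map2. The order thus depended on the markers chosen. Markers of microglia and endothelium were at low levels. Of 17 microglial markers 4 were tested, and the other 13, among them Aif1, Csf1r and Itgam, had at most 14 counts in any of the 6 libraries. Of 12 endothelial markers 3 were tested, and Cdh5, Cldn5 and Emcn had 0 counts in all 6, which allows up to 3 counts per library by counting error alone. The summed levels were 23 to 26 and 22 to 27 CPM for microglia and 5 to 6 and 13 to 21 CPM for endothelium in differentiation and proliferation medium, the latter mostly Flt1, which fell by 3.75. Of 15 markers of mural cells and fibroblasts 6 were tested: Pdgfrb rose, Acta2, Tagln, Rgs5 and Foxc1 fell, and Col1a2, Col3a1 and Dcn had at most 11 counts. Foxj1, the master factor of ciliated ependymal cells, read 31.8, 31.9 and 54.4 against 106, 103 and 103, and 7 of 10 tested genes of ependyma and choroid plexus were higher.

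Genes of amino acid supply and the integrated stress response, which the factor ATF4 drives, were much lower in differentiation medium. Of 29 tested ATF4 effectors 26 were lower and 1 higher (median -1.28), and the summed level was 4702 to 5830 CPM in proliferation and 2563 to 2679 in differentiation medium. Asns, the asparagine synthetase, read 240, 327 and 310 in proliferation and 44.7, 47.8 and 48.5 in differentiation medium (log2 fold change -2.64, SE 0.12, adjusted p = 1.24e-09). Nupr1 (chromosome 7, 126623249 to 126630861) read 59.1, 94.5 and 116 against 1.18, 1.23 and 1.28. Both genes were high in all 3 proliferation libraries and low in all 3 differentiation libraries. Atf4 itself fell by 1.38, the cationic amino acid transporter Slc7a3 by 5.06, the large neutral amino acid transporter Slc7a5 by 1.31, the mitochondrial enzymes Shmt2 and Pck2 by 2.61 and 2.49, and Trib3 and Ddit3 (CHOP), which are induced late in the response, by 3.79 and 1.28. The member that rose was Ddit4, by 0.36. Of the 20 cytosolic aminoacyl-tRNA synthetases, which charge tRNAs for translation, 19 were lower (median -1.16), and Hars, the remaining gene, had a log2 fold change of -0.26 (adjusted p = 0.0546) and was lower as well without Proliferation_4HBP replicate 3. Nars, which charges asparagine, read 475, 519 and 490 against 158, 154 and 156.

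The letters of an ATF4-type element, TGATGNAA or TTNCATCA, stood in 25.7% of the 35 promoters of the ATF4 list and in 41.7% of the 12 of the tRNA synthetases, against 3.97% of all 32851. The stretch of Pck2 is shown because it held these letters and touched no annotated exon, with the letters in capitals 103 bases before the start.
Pck2, chr14:55540116-55540265, plus strand: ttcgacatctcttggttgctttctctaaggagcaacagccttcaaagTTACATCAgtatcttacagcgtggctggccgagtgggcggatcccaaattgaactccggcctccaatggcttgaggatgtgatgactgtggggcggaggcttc
Pck2, the mitochondrial phosphoenolpyruvate carboxykinase, read 59.2, 71.0 and 86.4 in proliferation and 13.4, 12.9 and 12.3 in differentiation medium.

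The chaperones of the endoplasmic reticulum (ER) went the other way by small amounts. Of 30 genes of ER chaperones and degradation 17 were higher and 2 lower (median 0.29). Hspa5 (BiP), the main ER chaperone, read 342, 270 and 243 against 434, 425 and 427 (log2 fold change 0.59, SE 0.11, adjusted p = 0.000271), and Eif2ak3 (PERK), the kinase that senses unfolded protein, read 42.3, 36.9 and 40.4 against 48.9, 47.4 and 48.6 (log2 fold change 0.28, adjusted p = 0.00258). In both the differentiation values lay above all proliferation values, and Atf6 and Herpud1 were the members that fell, Herpud1 not past the test without Proliferation_4HBP replicate 3 (adjusted p = 0.0583). Of 26 tested genes of NFκB signalling and inflammation 15 were lower and 4 higher (median -0.86). Rela, which encodes the p65 subunit, read 82.3, 82.9 and 78.2 against 49.1, 45.8 and 46.1 (log2 fold change -0.79, SE 0.06, adjusted p = 1.27e-07). Ptgs2, the inducible cyclooxygenase, fell by 3.32, while Tnf and Cxcl2 had no counts in differentiation and under 1.1 CPM in proliferation medium. The inhibitor Nfkbia and the chemokine Cxcl12 rose by 0.33 and 3.12. Of 26 tested interferon-stimulated and MHC class I genes 10 were lower and 2 higher (median -0.29), close to the share of all genes that were lower, and without Proliferation_4HBP replicate 3 9 were lower and 4 higher with a median of -0.07. Among them was B2m, the light chain of MHC class I, which fell by 1.33.

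Genes of protein synthesis and of the mitochondrial genome were lower. Of 77 tested cytosolic ribosomal proteins 57 were lower and 6 higher (median -0.42), a family with many near-identical pseudogenes that can divide its reads, and of 33 genes of ribosome biogenesis 27 were lower (median -0.69) and the other 6 did not pass the test. Npm1, a nucleolar chaperone, read 648, 628 and 513 in proliferation and 229, 240 and 240 in differentiation medium. Of the 13 mitochondrially encoded proteins 8 were lower and 4 higher (median -0.52), the latter including mt-Co3. Genes of glycolysis and hypoxia had no common direction, with 11 of 25 higher and 5 lower, or 10 and 9 without Proliferation_4HBP replicate 3 (median -0.01 and -0.11). In the cholesterol list 17 of 24 tested genes were higher and the other 7 did not pass the test (median 0.56). Hmgcs1, an early enzyme of cholesterol synthesis, read 570, 563 and 300 against 616, 670 and 678 (log2 fold change 0.45, SE 0.19, adjusted p = 0.0454), and Mvk read 20.7, 18.2 and 10.1 against 34.1, 37.4 and 37.0 (log2 fold change 1.15). Replicate 3 was the lowest proliferation library for both. Without it 16 cholesterol genes were higher and 6 lower, and the median was 0.35. Hmgcs1 then had a log2 fold change of 0.20 and no longer passed (adjusted p = 0.0671). Of 28 tested genes of the extracellular matrix 12 were higher and 10 lower, against 33.3% and 33.8% of all genes tested. Fibronectin (Fn1) fell by 3.04, and thrombospondin 1 (Thbs1), which astrocytes secrete, rose by 5.04.

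Set beside the vehicle libraries, the change of medium was broadly shared. The 2 comparisons have no library in common, but both were tested in 1 fit over all 11 libraries. Under vehicle, 4902 genes were higher (30.8%) and 4869 lower (30.6%), and 3605 passed the test over 2-fold (22.6%). Over 2-fold, 2871 genes were called in both, which is 72.7% of the genes under 4HBP and 79.6% of those under vehicle, and 2870 of them had the same direction. Pearson's r of the log2 fold changes was 0.876 across the 15920 genes tested, and genes do not stand for replicates. The 2226 genes over 2-fold higher under vehicle had a median of 1.79 there and 1.80 under 4HBP, and the 1379 over 2-fold lower had -1.67 and -1.47. At an adjusted p under 0.05, 64 genes were called in opposite directions.

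**Figure D3:**
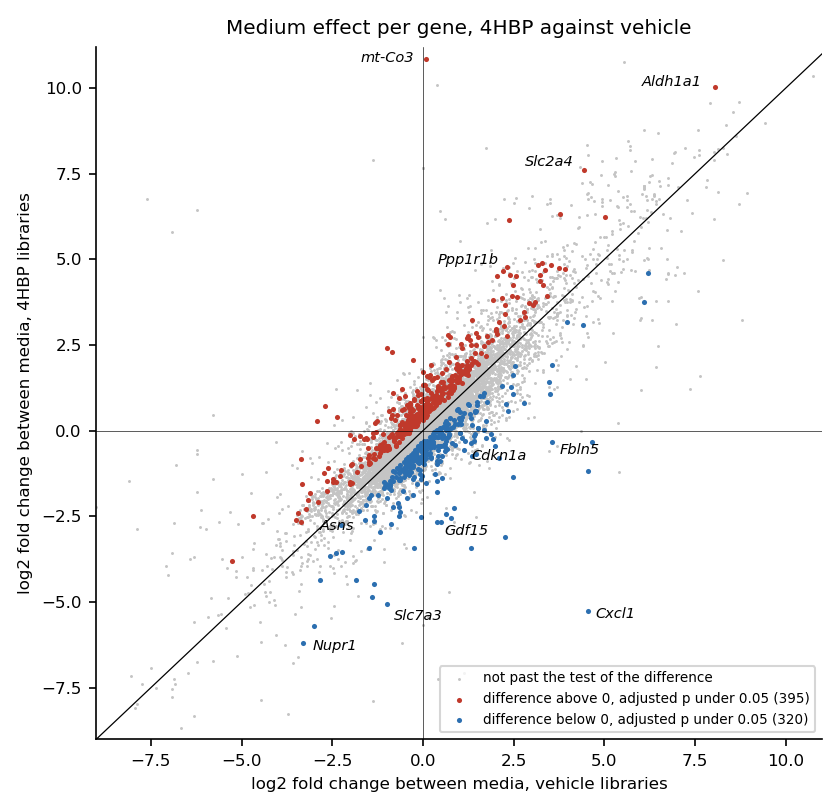
Log2 fold change between the media under 4HBP (vertical axis) against that under vehicle (horizontal axis) for the 15920 genes tested, with the diagonal of equal effects. Most genes lie along the diagonal, and the coloured genes are the 395 above and 320 below it whose difference passed the test.

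The difference between the medium effect under 4HBP and that under vehicle, tested in the same fit, passed for 715 genes (4.49%), 395 with a positive and 320 with a negative difference. This count depended on single libraries: it was 124 without either Differentiation_CTRL library, 305 to 311 without any 1 Differentiation_4HBP library, 403 and 413 without Proliferation_CTRL replicates 1 and 2, 1100 without Proliferation_CTRL replicate 3 and 1094 without Proliferation_4HBP replicate 3. In 220 of the 715 the fold changes had opposite signs, and of the other 495 the change was larger under 4HBP in 342 and smaller in 153. Over these 715 genes the median size of the log2 ratio of 4HBP over vehicle means (CPM + 0.1) was 0.11 in differentiation and 0.58 in proliferation medium, against 0.087 and 0.17 over all genes tested. The libraries with and without 4HBP were closer to each other in differentiation medium for these genes.

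Genes of amino acid supply were among those with the largest negative differences. In the ATF4 list 15 of 29 genes passed, all negative, and the median fold change was -1.28 under 4HBP and -0.35 under vehicle. Asns read 118, 96.0 and 125 in proliferation and 42.6 and 46.8 in differentiation medium under vehicle, so its difference was -1.30 (SE 0.17, adjusted p = 0.0025), with all 3 proliferation libraries with 4HBP above all 3 without it and similar values in differentiation medium. Slc7a3, at 21.6, 28.7 and 39.0 CPM in proliferation medium with 4HBP and 3.03, 1.97 and 2.58 without, differed by -4.07 (adjusted p = 0.000745). Nupr1, Gdf15, a secreted stress hormone, and Slc7a5 differed by -2.89, -3.04 and -1.29. Of the tRNA synthetases 7 of 20 passed, all negative, among them Wars at -1.19. Outside this list, Fbln5, an elastic fibre protein, read 8.96, 15.3 and 16 in proliferation and 11.4, 10.2 and 10.1 in differentiation medium with 4HBP, and 1.46, 1.04 and 1.34 and 16.1 and 14.3 with vehicle (difference -3.90, SE 0.31, adjusted p = 0.000119), a large increase under vehicle that was missing under 4HBP. Cyb5r1, a reductase, differed by -3.17.

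Targets of p53, the factor that stops the cycle after damage, differed as a list. Under vehicle 11 of 21 were higher in differentiation medium and 1 lower (median 0.53), while under 4HBP 5 were higher and 10 lower (median -0.31; 6, 8 and -0.17 without Proliferation_4HBP replicate 3), and 12 passed the test of the difference, all negative. Cdkn1a read 119, 104 and 154 in proliferation and 266 and 291 in differentiation medium under vehicle, and its difference was -1.46 (adjusted p = 0.00297). The death gene Pmaip1 (Noxa) and Phlda3, an inhibitor of AKT, differed by -1.78 and -1.43. In differentiation medium the list summed to 1718 to 1869 CPM with 4HBP and 1774 to 1942 with vehicle, and in proliferation medium to 2071 to 2767 and 1389 to 1565, so the groups were apart only in proliferation medium. The growth factor list had 7 negative differences of 23 genes: Dusp6 rose by 1.42 under vehicle, from 14.4, 10.7 and 15.2 to 35.8 and 36.4, and differed by -1.53 (adjusted p = 0.000592), and Egr1 by -1.51. Cxcl1, a chemokine with no counts in the Proliferation_CTRL libraries and 1.62, 2.08 and 7.12 CPM in Proliferation_4HBP, passed too, but its fitted difference rests on a group at 0 and has no interpretable size.

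**Figure D4:**
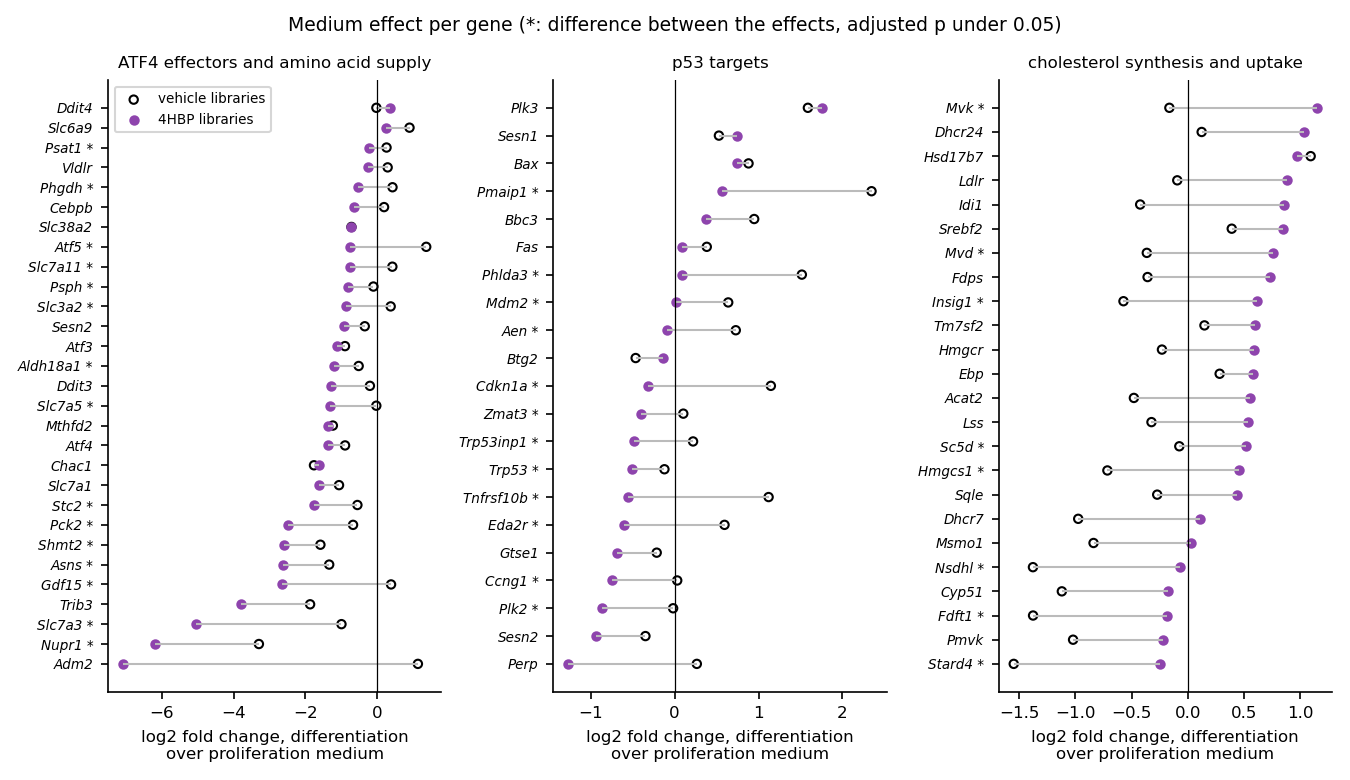
Log2 fold change between the media under 4HBP (filled) and vehicle (open) for each tested gene of the ATF4, p53 and cholesterol lists, with an asterisk where the difference passed the test. The filled points lie to the left of the open ones for most ATF4 and p53 genes and to the right for most cholesterol genes.

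Cholesterol and astrocyte genes held positive differences. In the cholesterol list 8 of 24 passed, all positive, and under vehicle 9 genes were lower and 2 higher in differentiation medium (median -0.36). Hmgcs1 read 778, 940 and 711 in proliferation and 470 and 517 in differentiation medium under vehicle, a decrease where the 4HBP libraries gave an increase (difference 1.17, SE 0.28, adjusted p = 0.0361). Without Proliferation_4HBP replicate 3 that increase was 0.20 and did not pass the test (adjusted p = 0.0671). Mvk and Insig1, a sterol sensor, differed by 1.31 and 1.19. The letters TCACNCCAC of a sterol element, or GTGGNGTGA, stood in 1 of 20 promoters of this list (5%) and in 1.24% of all. In the astrocyte list they stood in 2 of 24 (8.33%), so they were not particular to cholesterol genes. The 1 promoter is that of Hmgcs1, which held them within the 150 bases shown, in capitals.
Hmgcs1, chr13:119690201-119690350, plus strand: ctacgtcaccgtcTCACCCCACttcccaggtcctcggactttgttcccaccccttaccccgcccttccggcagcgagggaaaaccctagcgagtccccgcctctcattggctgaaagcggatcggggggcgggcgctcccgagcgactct
In the astrocyte list 11 of 26 genes passed, all positive. Gfap read 2339, 2634 and 2169 in proliferation and 1684 and 1406 in differentiation medium under vehicle, a decrease of 0.62 on the log2 scale that was not seen under 4HBP (difference 0.68, SE 0.14, adjusted p = 0.0192). Gja1, Aqp4 and Ntsr2 rose under both and by more under 4HBP, with differences of 0.82, 0.74 and 1.33. Beyond the lists, Slc2a4, the insulin-regulated glucose transporter, Ppp1r1b (DARPP-32) and Papss2 rose under both and by more under 4HBP, with differences of 3.17, 2.46 and 2.15, of which that of Slc2a4 rests on a Proliferation_4HBP group at 3 counts or fewer. Of 54 G2/M genes and 43 S phase genes, 1 and 3 passed the test of the difference, although the medians were -1.87 and -1.25 under 4HBP and -2.71 and -1.87 under vehicle.

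**Figure D5:**
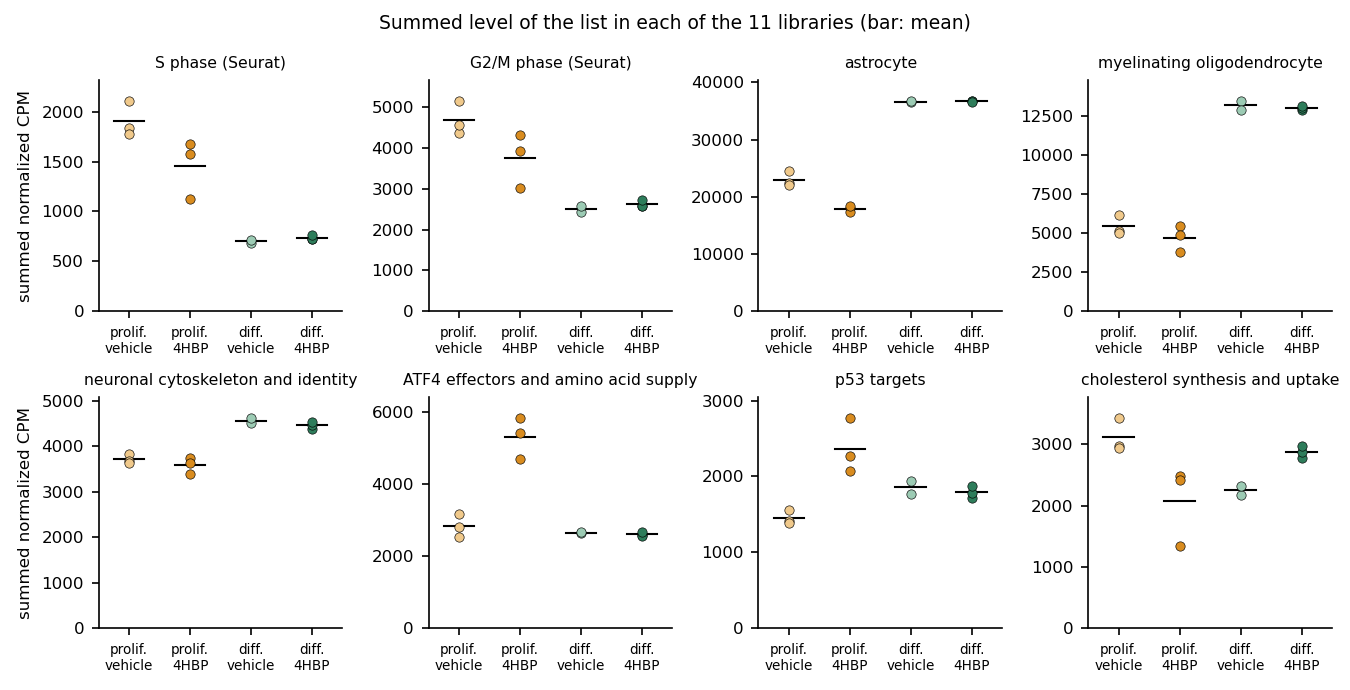
Summed normalized CPM of 8 gene lists in each of the 11 libraries, by group, with a bar at each mean and axes from 0. The differentiation libraries with and without 4HBP lie clearly apart for cholesterol. For the S phase and G2/M lists those with 4HBP are slightly higher without overlap, and for the other lists they overlap. In proliferation medium the ATF4 and p53 sums are higher and the S phase, G2/M, astrocyte and cholesterol sums lower with 4HBP, without overlap.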

How the data were processed

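Gene expression was measured by paired-end sequencing of stranded, poly(A)-selected libraries. Per the labels and methods, the authors identified adapters with FastQC 0.11.5, trimmed them with cutadapt and quantified genes with RSEM 1.3.0 and Bowtie2 2.2.9 on mm10 (GRCm38), and they deposited an expected count (an estimated, not always whole, number of fragments) and TPM for each gene and library, with replicates kept apart. The deposited FPKM values, also from RSEM, were not used. RSEM divides fragments between similar genes, so near-identical genes are uncertain. Of the values above 0, 18.6% were not whole.

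Expected counts were rounded, genes with low counts removed by group (filterByExpr), and 15920 of 53801 genes tested with edgeR 4.0.16 (R 4.3.3), with TMM scaling, 4 group means over all 11 libraries, quasi-likelihood tests and Benjamini-Hochberg adjustment at 0.05. The SE is the absolute log2 fold change over the square root of F. It is approximate, above all for large changes with few counts in 1 group. For Aldh1a1 it was 0.16 under 4HBP and 0.14 under vehicle, but 0.38 for their difference. The difference between the medium effects was a contrast of the same fit. The script was tested on simulated data. The study's own test was limma on log2(CPM + 1), which was run as an alternative. Other alternatives were limma voom, DESeq2 1.42.0, library totals, no filter, stricter fold limits, the libraries of each comparison alone, the replicate number as a block, and each library left out in turn.

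The genes named were the 10 largest changes each way (protein coding, no overlap, at least 20 CPM in the higher group), 46 anchor genes, up to 4 members per list and those against its majority, and the 8 largest differences each way with at least 5 CPM in a group. Some other list members were added after their values were seen. The members and the 34 gene lists were chosen with earlier results of these data known, and the ATF4-type and sterol letters were added after seeing the data. Cell cycle lists came from Seurat 5.3.0. Gene positions are from GENCODE on the same build, and shared sequence was counted in 40-base words. Fold bounds use a floor of 3 counts per library, which covers counting error only. Some genes are not reported here.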

Additional observations from a re-analysis of the deposited data

Results flagged for a closer look

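Each gene here was singled out because its change between the media under 4HBP differed from that under vehicle by the test of the difference in edgeR, with Benjamini-Hochberg adjusted p under 0.05. Values are the log2 fold change under 4HBP minus that under vehicle, and their cause was not tested.

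Among genes of amino acid supply and stress the difference was -4.07 for Slc7a3, -3.04 for Gdf15, -2.89 for Nupr1, -1.81 for Pck2, -1.30 for Asns, -1.29 for Slc7a5, -1.02 for Shmt2 and -0.98 for Phgdh. For the tRNA synthetases Wars and Nars it was -1.19 and -0.72. Among p53 targets it was -1.78 for Pmaip1, -1.46 for Cdkn1a, -1.43 for Phlda3 and -0.78 for Ccng1. Among growth factor targets it was -1.53 for Dusp6, -1.51 for Egr1, -0.96 for Spry4 and -0.79 for Etv5, which shares 27.5% of its 40-base words with Gm4798. The remaining negative values were -3.90 for Fbln5, -3.46 for Tgm1, -3.17 for Cyb5r1, -3.16 for Apobr and -3.10 for Egr2, and the fitted value of -9.80 for Cxcl1 is no measure of size, since its Proliferation_CTRL libraries held 0 counts.

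Among cholesterol genes the difference was 1.31 for Mvk, 1.19 for Insig1 and 1.17 for Hmgcs1. Among genes of astrocytes and progenitors it was 1.98 for Aldh1a1, 1.33 for Ntsr2, 0.82 for Gja1, 0.74 for Aqp4, 0.73 for Notch3, 0.68 for Gfap, 0.67 for Bmp4, 0.66 for Sparcl1 and 0.59 for Fabp7. Other positive values were 3.17 for Slc2a4, 2.55 for Ankrd35, 2.46 for Ppp1r1b, 2.15 for Papss2, 1.95 for Ccdc13, 1.91 for Acat3 and 1.22 for Adra2a. The fitted values of Slc2a4 and Ankrd35 rest on a Proliferation_4HBP group at 3 counts or fewer and are no measure of size. That of Aldh1a1 rests on few counts as well. Its proliferation libraries read 0.0937 to 0.245 CPM with 4HBP and 0.397 to 0.839 with vehicle, so its size is uncertain. Of the 40-base words of Acat3, 44.6% are shared with Acat2. The value of 10.77 for mt-Co3 rests on a gene with a near-identical copy, whose vehicle libraries in proliferation medium ranged from 0.0987 to 147 CPM.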

How the results depend on the processing

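The counts of genes changed by the medium under 4HBP and under vehicle stayed within 1.5 times the reported ones under every alternative run, and leaving out 1 library gave 9830 to 10915 genes under 4HBP, 3724 to 4095 over 2-fold and 7907 to 10477 under vehicle. Over 2-fold, the count of 3951 became 2534 with limma on log2(CPM + 1), 2414 when the test itself required a 2-fold change, and 1528 over 4-fold. With the 6 libraries with 4HBP fitted alone, 10149 of 15050 genes tested passed, and 3599 were over 2-fold. The difference between the medium effects was the least stable: 715 genes became 1086 with DESeq2, 350 with limma on log2(CPM + 1) and 1616 without the filter, and 124 to 1100 when 1 library was left out. With library totals in place of TMM, 341 of its genes were positive and 391 negative, a positive share of 46.6% in place of 55.2%. The causes were not tested.

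Replicate numbers did not pair the samples: deviations of same-numbered libraries correlated at -0.0567, -0.0636 and -0.0952 across genes. With the replicate block the counts were 10466 under 4HBP, 3922 over 2-fold, 9337 under vehicle and 692 for the difference. Among the named genes, 1 value reversed, that of Egfr (-0.21 to 0.034 when 1 library was left out, the latter without Proliferation_4HBP replicate 3), 31 of the medium effects' values lost significance and 4 gained it against 1180 that kept their call, and 45 of the differences lost it against 243. The median of the glycolysis and hypoxia response list became 0.037 with library totals. Below the floor of 3 counts, 0.129 to 0.144 CPM, changes were not detectable at this depth.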
